A study of Rattus norvegicus with 10 samples.

Results

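Dividing cells copy their DNA and then separate the copies, and most of the genes that carry out these steps are transcribed mainly in cycling cells. Here 44 such genes were followed through RNA sequencing of rat oligodendrocyte progenitor cells (OPCs) and oligodendrocytes (OLs) that had received mimics or an inhibitor of miR-145. The genes were listed by name for their known roles, with earlier results of these data known, and 42 of the 44 were found by symbol among the 14561 genes with a symbol in a table of 23487 genes. E2f1 and Ccnb2 were not analysed here. The 42 fell into 6 roles: 10 genes of G1 and the Rb-E2F switch (Ccnd1, Ccnd2, Ccnd3, Ccne1, Ccne2, Cdk2, Cdk4, Cdk6, E2f2, Rb1), 4 CDK inhibitors (Cdkn1a, Cdkn1b, Cdkn1c, Cdkn2c), 10 genes of DNA replication and nucleotide supply (Mcm2 to Mcm7, Pcna, Rrm1, Rrm2, Tyms), 3 genes of S and G2/M control (Ccna2, Ccnb1, Cdk1), 13 mitotic genes (Aurka, Aurkb, Plk1, Bub1, Bub1b, Birc5, Cdc20, Cdca8, Cenpf, Tpx2, Ube2c, Top2a, Mki67) and 2 late transcription factors (Foxm1, Mybl2).

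As background, D-type cyclins with Cdk4 or Cdk6, and then E-type cyclins with Cdk2, phosphorylate Rb1 and release E2F factors, which switch on genes of DNA synthesis. Cdk1 with A- and B-type cyclins drives mitosis, Foxm1 and Mybl2 activate genes of this step, and CDK inhibitors hold these kinases back. OPCs divide in response to the growth factor PDGFAA, acting on the receptor Pdgfra, and leave the cycle as they become OLs.

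The libraries came from primary Sprague-Dawley rat cells, shaken off mixed glial cultures of cortices from pups of postnatal days P1 to P3. There were 2 libraries for each of 5 groups, and per the labels every group was transfected at 30 nM. The paper's paragraph on RNA sequencing instead names lentiviral overexpression, while its results name mimics, and the labels were followed. OLs in medium with T3, CNTF and N-acetyl L-cysteine were sampled 5 days after transfection with a miR-145-5p mimic (OL miR-145), with miR-145-5p and miR-219 mimics (OL miR-145+miR-219) or with a scrambled mimic (OL miR-ctl). OPCs in medium with FGF2 and PDGFAA were sampled 24 h after transfection with a miR-145-5p inhibitor (OPC anti-miR-145) or a scrambled inhibitor (OPC anti-miR-ctl). A tag of the OL miR-145 libraries lists miR-219 as well, which their titles do not, and the titles were followed. The study defines a replicate of primary culture as cells enriched from a single animal, which it calls a mouse, whereas the labels only number these rat libraries. If a number marks no separate culture, the p-values measure a technical spread. Shake-off cultures are enriched for the lineage but not sorted.

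The mature sequence of the miRNA that was mimicked or inhibited is shown because it defines both treatments. It is taken from RefSeq (GRCr8, chr18:57370033-57370055, minus strand), with the seed, bases 2 to 8, in capitals.
rno-miR-145-5p: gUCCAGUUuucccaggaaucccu

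Estimated counts summed to between 33505706 and 42684206 per library, and counts of the 42 genes ran from 45 to 166728 in a library. In every group the replicates differed by more than counting noise (chi-square per degree of freedom between 11.1 and 76.0). Levels are given as CPM, the count scaled to library size after TMM normalisation, and are compared between libraries but not between genes, since the values are not per length. Of the 42 genes, 34 had whole estimated counts in all 10 libraries (within 0.001). Ccne2, Cdk4, Rrm2 and Aurkb were not whole in any library, which arises where reads are divided between genes, and their values are less certain for that reason. Each comparison was tested with edgeR's quasi-likelihood test on its own 4 libraries, and a gene was called where its p, adjusted by Benjamini-Hochberg over all genes tested, was under 0.05. All 42 genes passed the filter on low counts in all 5 comparisons.

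The labelled cell types were checked against marker genes. Mbp, a myelin protein gene, stood at 248 and 279 CPM in OPC anti-miR-ctl and 6218 and 13123 in OL miR-ctl, and Pdgfra, the receptor that defines OPCs, stood at 903 and 907 and 265 and 186. Of 5 OPC markers 4 were called lower in OL miR-ctl, while Gpr17 was 13.4-fold higher. Astrocyte and microglia transcripts were present in the OL libraries, with Gfap between 4173 and 9676 CPM and C1qa between 73.3 and 203 over the 6 libraries. Microglia transcripts were present in the OPC libraries as well. Summed microglia markers stood between 702 and 899 CPM there and between 280 and 752 CPM in the OL libraries. In these bulk libraries fewer dividing cells and less RNA of the cell cycle genes per cell cannot be told apart.

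**Figure D1:**
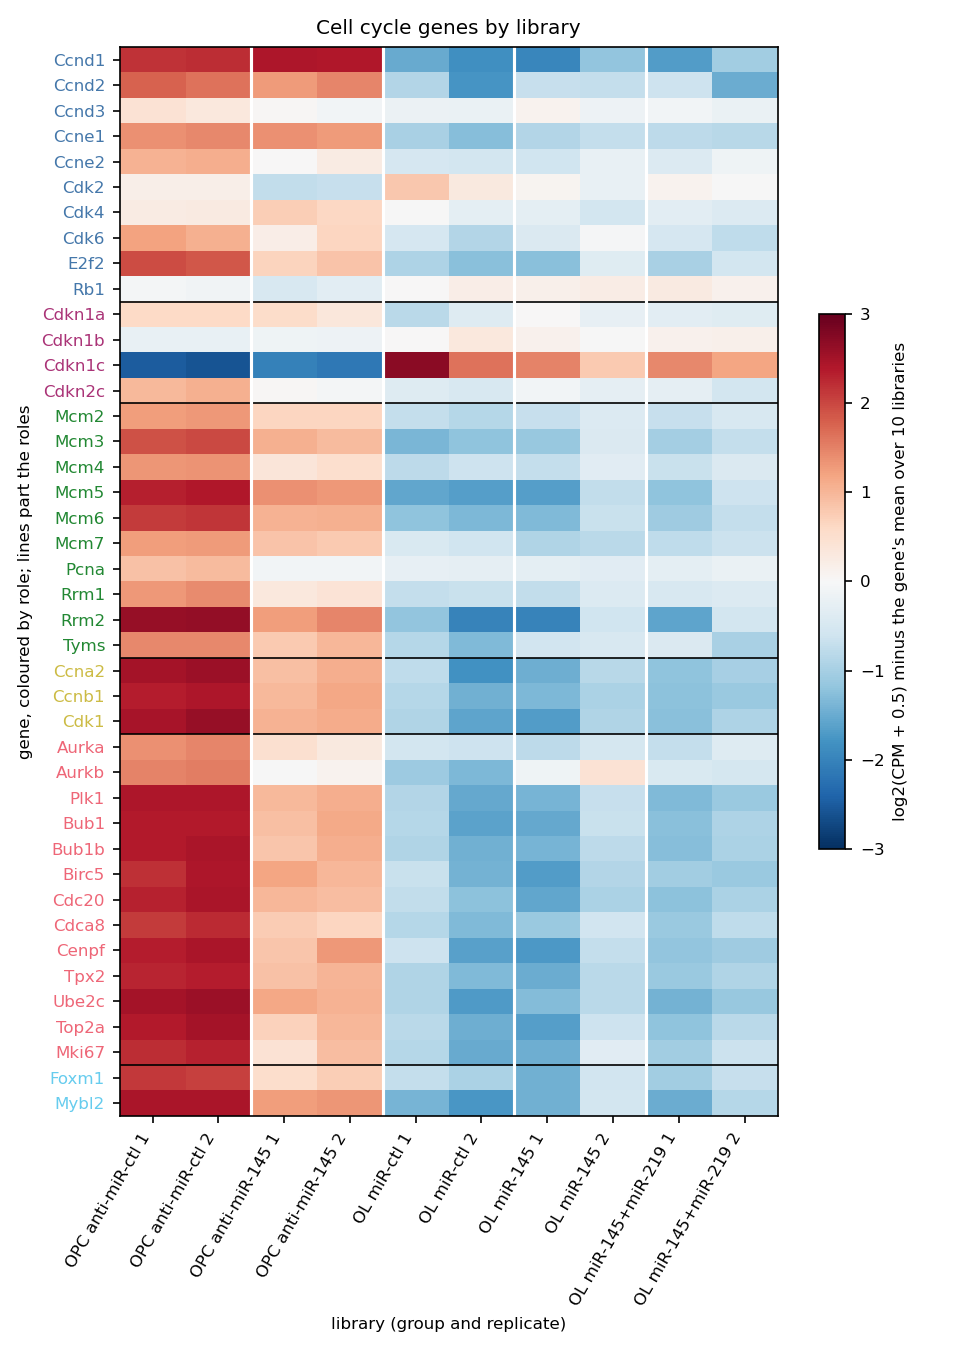
Heat map of the 42 genes (rows, in order of role) in the 10 libraries (columns). Colour gives log2(CPM + 0.5) minus the mean of that gene over the 10 libraries, red for higher and blue for lower. The 2 OPC anti-miR-ctl columns are red for most genes, the OPC anti-miR-145 columns paler and the 6 OL columns blue, while Cdkn1c runs the other way.

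The promoters of these genes are shown because all 13 mitotic genes and all 10 replication genes fell in both comparisons that involve OPC anti-miR-ctl, described further on. As background, promoters of G2/M genes often hold a CHR element and CCAAT boxes, to which the MuvB complex with Mybl2 or Foxm1, and the factor NF-Y, bind, and promoters of replication genes often hold E2F sites. RefSeq promoters (GRCr8, 250 bases before to 50 bases after the start site) were matched by symbol for 29 of the 42 genes. Ccna2, Ccnd1, Ccnd2, Ccne2, Cdk6, Cdkn1c, Mcm4, Rrm2, Aurkb, E2f2, Tpx2, Ube2c and Foxm1 were not matched to a single entry. The letters searched on both strands were TTTGAA for the CHR, CCAAT for the CCAAT box, and for the E2F core the word TTCCCGC, the word TTCGCGC, the word TTGCCGC or the word TTGGCGC. An inverted CCAAT can overlap an E2F core or a CHR, and in these promoters 4 pairs of matches to different motifs and 5 pairs to the same motif overlapped.

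TTTGAA stood in 8 of 10 mitotic promoters (80%), CCAAT in 7 of 10 (70%) and both in 7, against 18.3%, 37.5% and 7.41% of all 33469 promoters of the table. The shares over all promoters count every entry, whereas a listed gene was kept only with a single entry. An E2F core stood in 7 of 8 replication promoters (87.5%) and in 1 of 10 mitotic promoters (10%), against 9.52% of all promoters. CCAAT also stood in 6 of 8 replication promoters (75%), so both groups held these letters often, while TTTGAA stood in 1 of the 8 (12.5%). In the other roles, Cdk1 held all 3 motifs and Ccnb1 held CCAAT alone. Ccne1, Cdk4, Cdkn1a, Aurka, Bub1 and Mybl2 held none in this window, and Aurka and Bub1 are among the 10 mitotic promoters counted above. Whether the start site of each entry is the one used in these cells was not tested. An E2F core also stood in 2 of 5 G1 promoters (40%) and 2 of 3 CDK inhibitor promoters (66.7%). The G1 genes were Cdk2 and Rb1, and the inhibitors were Cdkn1b and Cdkn2c. Between control OPCs and control OLs, Cdk2 and Rb1 were not called, Cdkn1b was higher in OLs and Cdkn2c was lower. A match describes letters only.

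Promoters of 3 mitotic regulators and 2 MCM helicase subunits are printed as examples, with the searched letters in capitals.
Cdk1 (chr20:19265043-19265342, plus strand): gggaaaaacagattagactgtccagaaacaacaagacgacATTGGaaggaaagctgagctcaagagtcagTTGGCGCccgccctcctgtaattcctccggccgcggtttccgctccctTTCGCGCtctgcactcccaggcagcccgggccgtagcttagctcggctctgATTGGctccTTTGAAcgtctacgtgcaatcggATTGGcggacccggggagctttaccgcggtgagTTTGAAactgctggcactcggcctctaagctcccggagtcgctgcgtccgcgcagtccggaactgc
Cdc20 (chr5:137255750-137256049, minus strand): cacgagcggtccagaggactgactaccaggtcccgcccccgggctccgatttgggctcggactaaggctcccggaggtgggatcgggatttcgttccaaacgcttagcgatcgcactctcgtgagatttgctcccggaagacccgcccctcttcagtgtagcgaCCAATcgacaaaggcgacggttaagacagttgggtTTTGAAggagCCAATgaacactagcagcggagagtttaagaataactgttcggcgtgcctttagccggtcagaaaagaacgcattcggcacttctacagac
Mki67 (chr1:199952544-199952843, minus strand): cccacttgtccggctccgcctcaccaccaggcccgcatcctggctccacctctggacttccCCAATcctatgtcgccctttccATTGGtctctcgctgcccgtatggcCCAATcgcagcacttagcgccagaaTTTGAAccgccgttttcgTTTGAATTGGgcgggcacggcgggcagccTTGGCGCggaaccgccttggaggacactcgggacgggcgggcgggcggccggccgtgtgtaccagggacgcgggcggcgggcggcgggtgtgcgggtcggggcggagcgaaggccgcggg
Mcm5 (chr19:13488563-13488862, plus strand): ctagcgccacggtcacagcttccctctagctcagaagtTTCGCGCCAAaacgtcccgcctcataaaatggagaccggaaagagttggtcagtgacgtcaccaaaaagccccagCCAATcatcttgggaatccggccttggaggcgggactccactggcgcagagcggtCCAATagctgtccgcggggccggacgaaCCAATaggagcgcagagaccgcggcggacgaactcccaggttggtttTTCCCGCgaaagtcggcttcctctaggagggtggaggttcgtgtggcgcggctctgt
Mcm6 (chr13:42404303-42404602, minus strand): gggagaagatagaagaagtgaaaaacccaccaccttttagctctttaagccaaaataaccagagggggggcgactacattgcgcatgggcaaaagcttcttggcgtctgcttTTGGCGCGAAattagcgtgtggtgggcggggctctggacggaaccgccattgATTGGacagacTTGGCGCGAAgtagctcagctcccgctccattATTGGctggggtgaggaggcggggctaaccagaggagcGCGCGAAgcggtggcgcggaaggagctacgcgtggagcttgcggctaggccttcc
In the Cdc20 promoter a CHR lies between a pair of CCAAT boxes, and in the Mki67 promoter a second CHR and an inverted CCAAT share letters. In the Mcm6 promoter 4 of the 5 E2F cores lie in overlapping pairs.

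**Figure D2:**
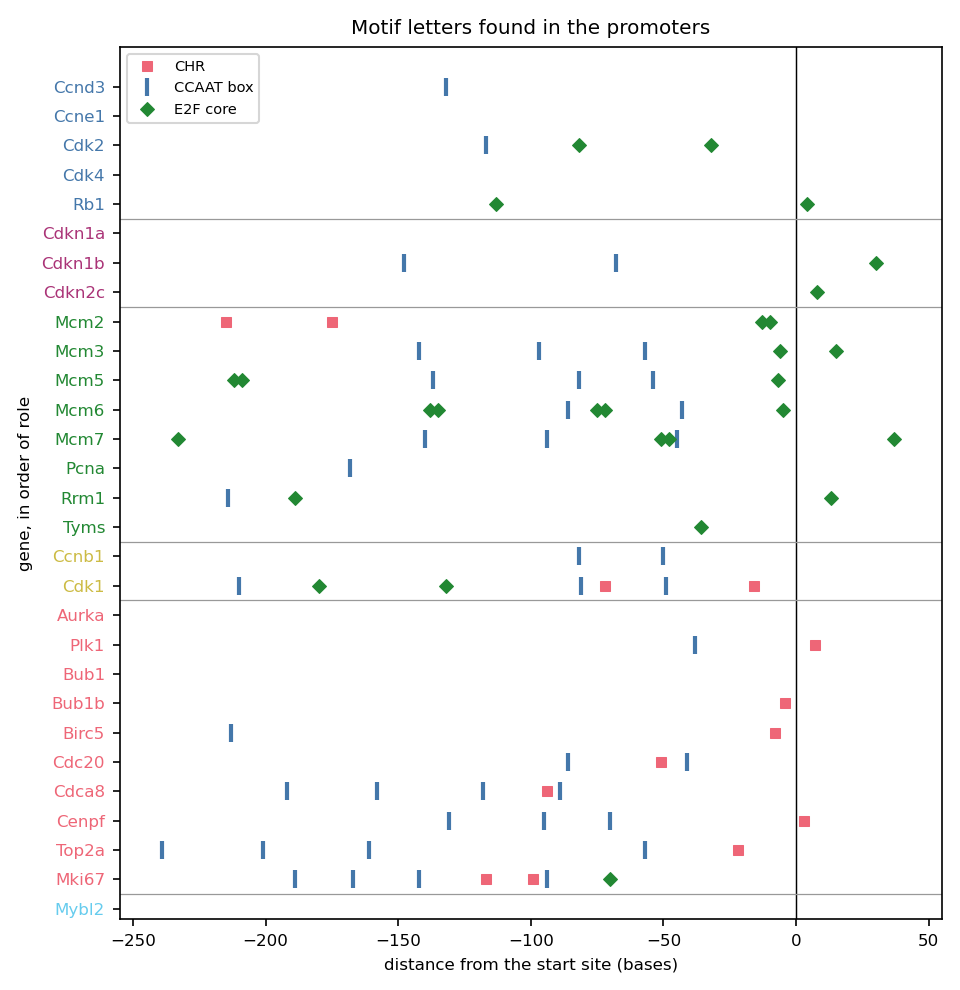
Positions of matches to the CHR, CCAAT and E2F core letters in 29 promoters, one row per gene in order of role. The horizontal axis gives the distance in bases of the first base of a match from the start site, and the vertical line marks the start site. Squares (CHR) are frequent in the mitotic rows and diamonds (E2F core) in the replication rows.

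The first comparison asked how the genes differed between control OLs and control OPCs. Stage, medium, time after transfection and kind of control oligonucleotide differ together here and cannot be told apart. In OL miR-ctl 38 of the 42 genes were lower, with a median log2 fold change of -3.14, and Cdkn1c and Cdkn1b were higher. Cdk2 and Rb1 were not called. Of all 15721 genes tested, 28.7% were called lower and 28.8% higher, and their median log2 fold change was 0.01.

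The largest difference upwards was in Cdkn1c (ENSRNOG00000059500), which encodes p57, a CDK inhibitor of cells leaving the cycle. It stood at 4.64 and 4.32 CPM in OPC anti-miR-ctl and 189 and 88.8 in OL miR-ctl, 30.6-fold higher (log2 fold change 4.94 ± 0.42 SE, adjusted p = 0.000534). The 2 OL libraries differed from each other by more than the OPC libraries did, but all lay far apart from them. Cdkn1b, which encodes p27, stood at 67.3 and 67.4 and 79.0 and 98.3 CPM and rose 1.30-fold (log2 fold change 0.38 ± 0.12 SE, adjusted p = 0.043). Cdkn1a, which encodes p21, fell from 509 and 508 to 193 and 258 CPM, and Cdkn2c, which encodes p18, fell 2.83-fold. The 4 CDK inhibitors therefore did not move one way.

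All 10 replication genes fell, with log2 fold changes from -4.28 to -1.19. Rrm2, the regulated subunit of ribonucleotide reductase, fell from 109.6 and 111 to 7.41 and 3.96 CPM (log2 fold change -4.28 ± 0.29 SE, adjusted p = 0.000246). Mcm5, a subunit of the replicative helicase, fell from 162 and 169 to 10.5 and 9.78 CPM, 16.5-fold (log2 fold change -4.04 ± 0.09 SE, adjusted p = 3.07e-05). Pcna, the sliding clamp that also serves in DNA repair, fell least of the 10, from 251 and 264 to 114 and 113 CPM. The groups did not overlap for any of the 10, but this was common over the whole table. Of all 15721 genes tested, both OL libraries stood below both OPC libraries in 6304 and above both in 6558.

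Ccna2, Ccnb1 and Cdk1 fell as well. Cdk1, the kinase of mitotic entry, went from 171 and 188 CPM to 16.0 and 9.87 (13.9-fold, log2 fold change -3.80 ± 0.24 SE, adjusted p = 0.000211), Ccna2 from 83.9 and 87.5 to 8.31 and 3.74 and Ccnb1 from 110.3 and 116 to 11.5 and 7.48. All 13 mitotic genes fell, with log2 fold changes from -3.94 (Ube2c) to -2.04 (Aurka). Ube2c, an E2 enzyme of the anaphase-promoting complex, went from 58.8 and 62.0 to 5.10 and 2.73 CPM, Plk1, a mitotic kinase, from 88.7 and 89.1 to 8.56 and 5.18, and the checkpoint kinase gene Bub1 from 94.0 and 95.4 to 9.64 and 5.52. Its partner Bub1b went from 101 and 106 to 9.87 and 6.68 CPM. In each of these genes OL miR-ctl replicate 1 stood above replicate 2. Mybl2, the B-Myb gene, fell 18.5-fold, from 55.5 and 55.7 to 3.44 and 2.58 CPM, and Foxm1 fell 7.89-fold.

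Of the 10 G1 genes, 8 fell. Ccnd1 (ENSRNOG00000020918), a cyclin of the growth factor response, fell from 3233 and 3356 to 252 and 199.7 CPM, 14.7-fold (log2 fold change -3.88 ± 0.15 SE, adjusted p = 6.22e-05), whereas Ccnd3 and Cdk4 fell 1.49- and 1.33-fold. Cdk2 stood at 48.9 and 49.5 CPM in OPCs and 76.3 and 53.7 in OLs (adjusted p = 0.107) and Rb1 at 54.1 and 51.6 and 56.4 and 64.4 (adjusted p = 0.173). These 2 genes did not share the drop of the other 8 G1 genes, and each was called higher when the OL miR-ctl replicate nearer to the OPC level was left out. Cdk4 and Cdkn1b lost their calls without either OPC anti-miR-ctl replicate.

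**Figure D3:**
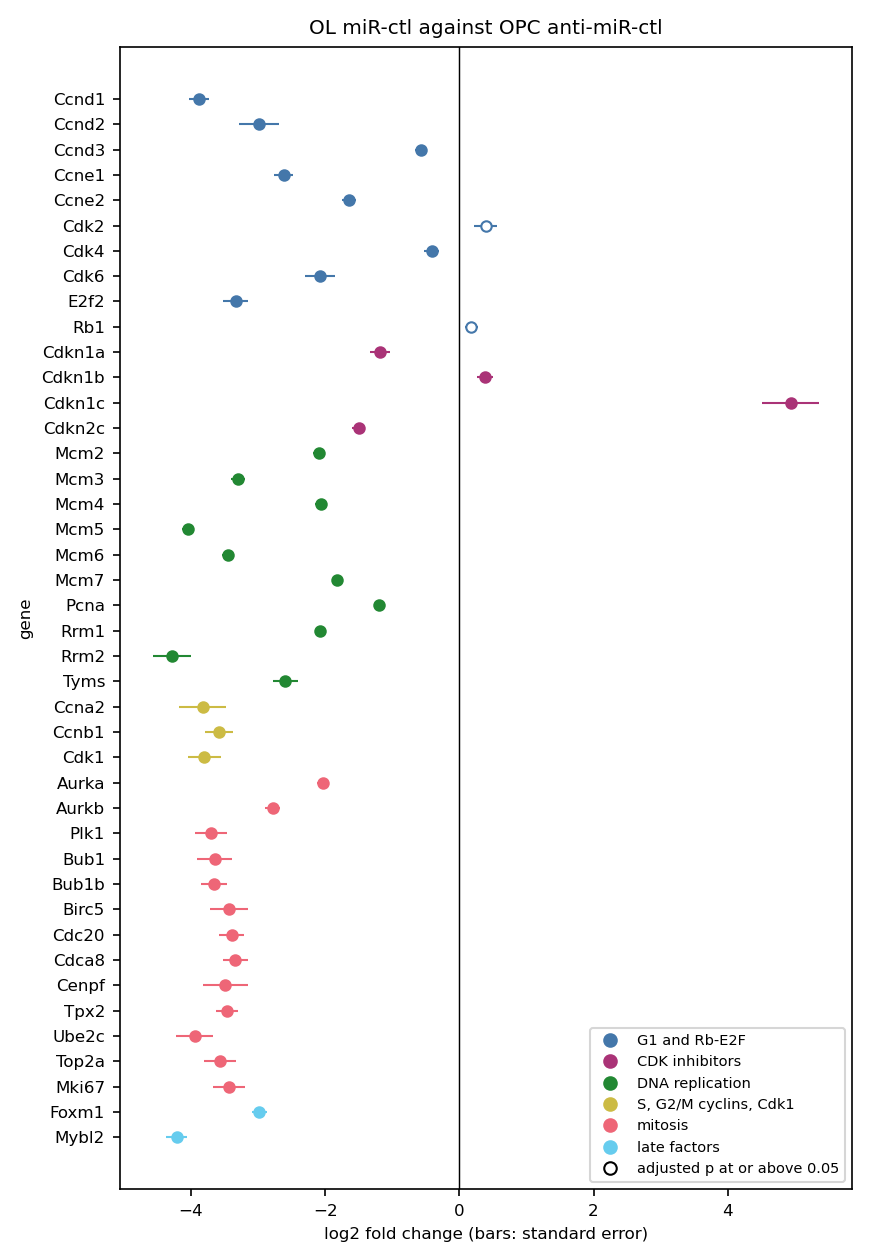
Log2 fold change of the 42 genes in OL miR-ctl against OPC anti-miR-ctl, in order of role. Points are edgeR estimates, bars their standard errors, filled points have an adjusted p under 0.05, and colours give the role. Cdkn1c stands alone on the right at 4.94 and the mitotic genes lie between -3.94 and -2.04.

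Further genes of the pathway went the same way. Of 29 other replication genes 28 fell and 0 rose, of 40 other mitotic genes 40 fell, and of 24 other regulators 19 fell and 1, the pocket protein gene Rbl2, rose 1.61-fold. The 3 of smallest p among the replication genes were Lig1, Uhrf1 and Rfc3, which fell 5.22-, 13.3- and 6.19-fold, and among the mitotic genes Smc4, Cks2 and Smc2. Of 11 p53 response genes 6 fell and Gadd45a, a growth arrest gene, rose 11.8-fold. Other cell types moved with this comparison: 6 of 7 maturing OL markers and 5 of 6 astrocyte markers rose (Gfap from 8.13 and 7.80 to 4795 and 4173 CPM), 4 of 5 OPC markers and 5 of 8 microglia markers fell, and the summed microglia markers went from 899 and 849.9 to 292 and 438 CPM. The part of these cells in the values of the cell cycle genes was not tested.

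The second comparison asked whether inhibiting miR-145 for 24 h changed cell cycle genes in OPCs. In OPC anti-miR-145 36 of the 42 genes were lower and 2, Cdk4 and Cdkn1c, were higher than in OPC anti-miR-ctl, with a median log2 fold change of -1.06. Of all 15496 genes tested, 16% were called lower and 12.1% higher, around a median of 0.00. The median was -1.49 for Cdk1 and its cyclins, -1.44 for the mitotic genes, -1.33 for the late factors, -0.98 for replication and -0.38 for G1.

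Mki67 (ENSRNOG00000028137), the Ki-67 proliferation marker, stood at 371 and 397 CPM in OPC anti-miR-ctl and 108 and 152 in OPC anti-miR-145, 2.99-fold lower (log2 fold change -1.58 ± 0.15 SE, adjusted p = 0.000441). Top2a, which untangles replicated DNA, went from 463 and 501 to 143 and 178 CPM, 3.04-fold lower (log2 fold change -1.60 ± 0.11 SE, adjusted p = 0.000146). Both inhibitor libraries lay below both control libraries in all 13 mitotic genes, and all 13 fell, with log2 fold changes from -1.60 (Top2a) to -1.04 (Aurka). Over all 15496 genes tested, both inhibitor libraries lay below both control libraries in 5067 and above both in 5556.

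Genes of the chromosomal passenger complex, which corrects chromosome attachment, were among them. Aurkb, its kinase, went from 96.5 and 100.1 to 34.0 and 36.5 CPM, Cdca8 from 83.1 and 91.8 to 32.4 and 30.0 and Birc5 from 50.6 and 60.5 to 25.2 and 21.9. Genes of the spindle checkpoint and the anaphase-promoting complex moved by a like amount. Bub1b went from 101 and 106 to 34.1 and 40.7 CPM, Ube2c from 58.8 and 62.0 to 22.7 and 21.0 and Cdc20 from 154 and 168 to 61.5 and 58.4. Plk1 went from 88.7 and 89.1 to 32.1 and 35.0 and the spindle assembly factor gene Tpx2 from 206 and 219 to 77.4 and 85.3. The adjusted p of these 8 genes lay between 7.48e-05 (Aurkb) and 0.000549 (Birc5).

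Cdk1 and its cyclins fell together. Cdk1 went from 171 and 188 to 63.2 and 66.3 CPM (log2 fold change -1.49 ± 0.09 SE, adjusted p = 9e-05), Ccna2 from 83.9 and 87.5 to 27.6 and 31.4 (log2 fold change -1.55 ± 0.09 SE, adjusted p = 9.09e-05) and Ccnb1 from 110.3 and 116 to 42.2 and 48.2 (log2 fold change -1.34 ± 0.09 SE, adjusted p = 0.000133). Foxm1, an activator of these genes, went from 91.8 and 88.5 to 30.3 and 34.9 CPM (log2 fold change -1.48 ± 0.09 SE, adjusted p = 0.000102), and Mybl2 fell 2.26-fold.

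All 10 replication genes fell too in the fit of the 4 OPC libraries, with log2 fold changes from -1.29 (Rrm2) to -0.46 (Mcm7). Mcm2 stood at 117 and 122 CPM in the control and 76.9 and 76.9 with the inhibitor (log2 fold change -0.65 ± 0.08 SE, adjusted p = 0.00125). Mcm3, Mcm4, Mcm5 and Mcm6 fell 1.94-, 1.89-, 2.07- and 2.14-fold, and Pcna, Rrm1 and Tyms, the thymidylate synthase gene, fell 2.04-, 2.01- and 1.48-fold. The estimates for Mcm2, Mcm7 and Tyms lay closer to 0 than those of the other 7.

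G1 genes were divided. Ccnd1 stood at 3233 and 3356 CPM in the control and 3910.1 and 3834 with the inhibitor. Both inhibitor libraries were the higher ones, and the difference did not pass the test (log2 fold change 0.22 ± 0.08 SE, adjusted p = 0.0895). Its partner Cdk4 rose 1.34-fold (log2 fold change 0.42 ± 0.09 SE, adjusted p = 0.0129), whereas Cdk6 fell 1.71-fold and Cdk2 1.89-fold. Ccnd2 and Ccnd3 fell 1.26- and 1.34-fold, Ccne2 fell 1.95-fold, and Ccne1 stood at 38.5 and 40.5 and 38.6 and 36.2 CPM with overlapping libraries (adjusted p = 0.492). E2f2, an activator E2F, fell 2.30-fold and Rb1 1.26-fold. Among the CDK inhibitors Cdkn2c fell 2.09-fold, Cdkn1a stood at 509 and 508 and 497 and 431 CPM and Cdkn1b at 67.3 and 67.4 and 72.0 and 71.1 (adjusted p = 0.32 and 0.527). Cdkn1c stood at 4.64 and 4.32 CPM and 6.61 and 6.05, 1.40-fold higher, close to the threshold (log2 fold change 0.48 ± 0.15 SE, adjusted p = 0.0477).

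Some of these calls rested on the setting. Cdkn1c was not called by DESeq2 (adjusted p = 0.113), and its adjusted p ran from 0.0507 to 0.407 over the 8 of 10 alternatives that lost its call. In the fit of all 5 groups the calls of Rrm2 (log2 fold change -1.28, adjusted p = 0.102), Tyms (adjusted p = 0.107), Cdk6 (adjusted p = 0.0838), Rb1 (adjusted p = 0.07), Ccnd2 (adjusted p = 0.526) and Cdkn1c were lost, so 8 of the 10 replication genes were called there. Without OPC anti-miR-ctl replicate 1 the calls of Ccnd2, Ccnd3, Cdk4, Cdk6, Rb1 and Cdkn1c were lost, and without OPC anti-miR-ctl replicate 2 those of Ccnd2, Cdk4, Rb1, Cdkn1c and Mcm7. Ccnd1 was called higher without OPC anti-miR-145 replicate 2, and Cdkn1a lower without OPC anti-miR-145 replicate 1.

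**Figure D4:**
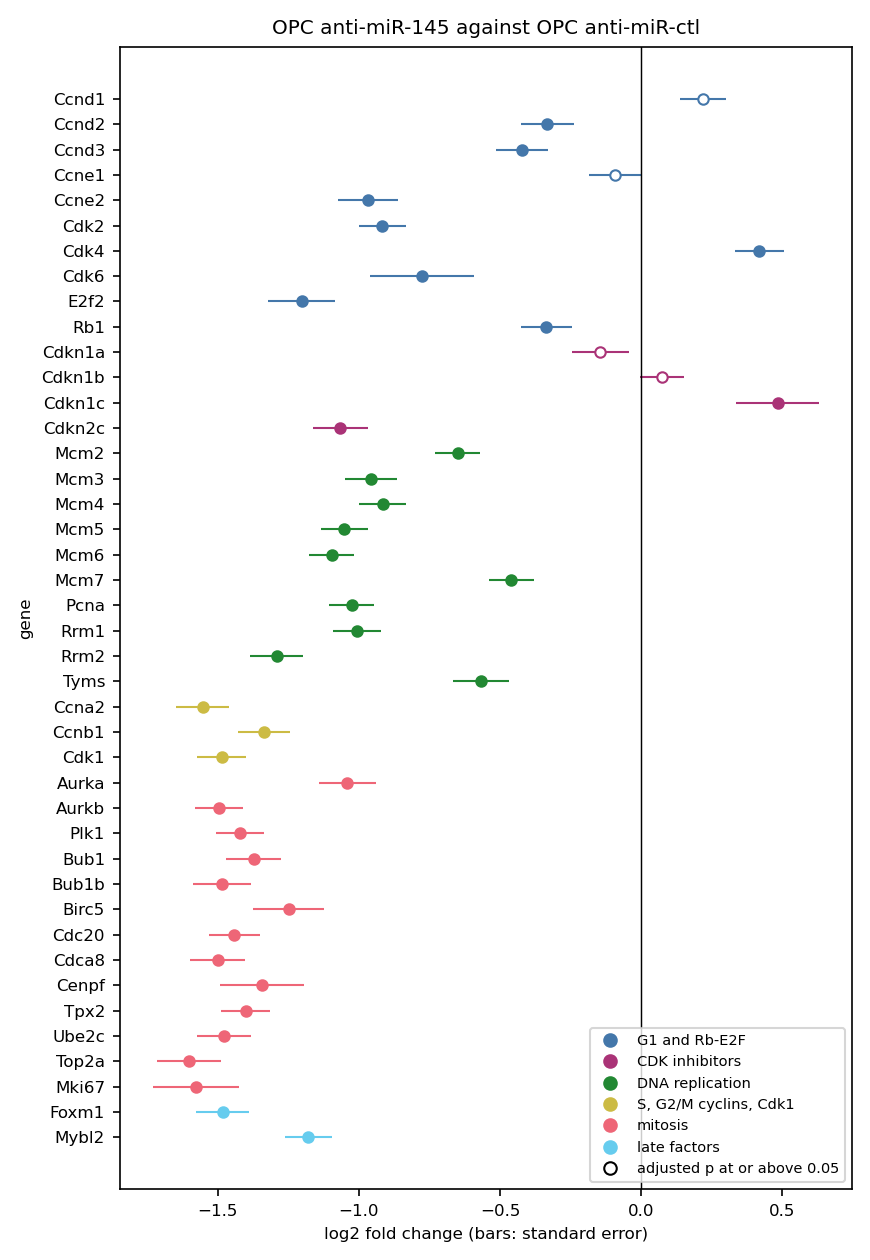
Log2 fold change of the 42 genes in OPC anti-miR-145 against OPC anti-miR-ctl, in order of role. Points are edgeR estimates, bars their standard errors, open points have an adjusted p of 0.05 or more, and colours give the role. The mitotic genes lie between -1.60 and -1.04, and Cdk4 and Cdkn1c lie to the right of 0.

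The other genes of the pathway gave a like picture. Of 40 other mitotic genes 40 fell, and the 3 of smallest p, the kinesin genes Kif2c, Kif20a and Kif4a, fell 2.83-, 2.74- and 3.11-fold. Of 29 other replication genes 28 fell, among them Tk1, Cdc45 and Mcm10 (2.23-, 2.56- and 2.61-fold), and 1 rose. Of 24 other regulators 13 fell and 3 rose. The 3 were Cdkn2b, the p15 inhibitor gene (86.5 and 93.7 against 183 and 159 CPM, log2 fold change 0.91 ± 0.11 SE, adjusted p = 0.000988), Cdkn2a, the p16 and p19Arf locus (46.2 and 50.0 against 98.6 and 76.7 CPM, log2 fold change 0.85 ± 0.14 SE, adjusted p = 0.00426), and Myc, a growth-promoting factor (86.8 and 90.5 against 146 and 138 CPM, log2 fold change 0.66 ± 0.08 SE, adjusted p = 0.00154). Among those that fell were the inhibitory E2F genes E2f7 and E2f8, 2.93- and 2.54-fold. Of 11 p53 response genes Bax and Sesn1 rose 1.36- and 1.33-fold and 0 fell, and Cdkn1a, a p53 target itself, is given above.

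Markers of other cells also moved between these OPC groups. Of 8 microglia markers 3 rose and 4 fell (C1qa 85.6 and 80.7 against 206 and 163 CPM), with a sum of 899 and 849.9 CPM in the control and 867 and 702 with the inhibitor. Of 6 astrocyte markers Gfap rose (8.13 and 7.80 against 41.2 and 51.8 CPM) and 3 fell, with sums of 654 and 622 against 402 and 446, and 3 of 4 neuron markers rose. Of 5 OPC markers 1, Pdgfra, rose 1.52-fold and 2 fell, among them Cspg4 1.47-fold, and the maturing OL markers summed to 1229 and 1308 against 1107 and 1098 CPM. The part of these cells in the cell cycle values was not tested.

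The levels reached with the inhibitor were set beside those of the 6 OL libraries as a description. Of the 36 genes that fell, 32 still stood above every OL library in both OPC anti-miR-145 libraries. Mki67, at 108 and 152 CPM, compares with 27.6 to 63.2 in OLs. Cdk2 and Rb1 stood below every OL library, at 25.8 and 26.8 and 39.9 and 44.6 CPM, and Ccnd3 and Aurkb overlapped the OL range.

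The third comparison asked whether the miR-145 mimic changed these genes in OLs. None of the 42 was called, and edgeR called 0% of the 15461 genes tested, of which 2067 had an unadjusted p under 0.05, while DESeq2 called 649 genes (4.2%) and 1 of the 42. Among the 42, 6 had an unadjusted p under 0.05, and the median log2 fold change was 0.16 against -0.01 over all genes. In 10 genes both miR-145 libraries stood above both miR-ctl libraries and in 5 both stood below, while over all genes 22.9% stood above and 24.4% below.

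Aurkb (ENSRNOG00000005659) had the smallest p of the 42, with rank 110 by p among the 15461 genes tested. It stood at 15.7 and 13.1 CPM in OL miR-ctl and 30.9 and 46.5 in OL miR-145, 2.70-fold higher (log2 fold change 1.43 ± 0.23 SE, unadjusted p = 0.00122, adjusted p = 0.158). DESeq2 called it (adjusted p = 2.78e-05), as did the fit of all 5 groups (adjusted p = 0.0433), and over the alternatives without a replicate term its adjusted p ran from 2.78e-05 to 0.566. The other members of the passenger complex did not share this order. Birc5 stood at 6.58 and 3.71 CPM in miR-ctl and 3.02 and 5.58 in miR-145, Cdca8 at 10.2 and 7.21 and 8.45 and 12.5, and Incenp, the scaffold of the complex, at 19.1 and 16.1 and 15.9 and 23.8, each with overlapping libraries. The estimated counts of Aurkb were not whole in any library, which arises where reads are divided between genes. How large a part of its reads was divided was not tested.

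Cdk2 and Cdkn1c were lower in both miR-145 libraries. Cdk2 stood at 76.3 and 53.7 CPM in miR-ctl and 46.1 and 37.3 in miR-145 (log2 fold change -0.64 ± 0.21 SE, unadjusted p = 0.024, adjusted p = 0.301). Cdkn1c stood at 189 and 88.8 and 80.8 and 49.3 (log2 fold change -1.09 ± 0.41 SE, unadjusted p = 0.0407, adjusted p = 0.352), and the miR-ctl libraries differed from each other by more than their lower one did from miR-145 replicate 1. Mcm7 stood at 51.9 and 47.2 and 38.5 and 41.1 CPM (unadjusted p = 0.039, adjusted p = 0.351). Cdkn1a was higher in both miR-145 libraries, at 193 and 258 against 341 and 284 CPM, and so was Tyms, at 8.41 and 5.86 against 10.3 and 10.9 (unadjusted p = 0.0464 and 0.0492, adjusted p = 0.365 and 0.371). None of these differences passed the test without a replicate term.

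Most mitotic genes overlapped between the groups. Mki67 stood at 44.1 and 27.6 CPM in miR-ctl and 28.5 and 63.2 in miR-145, Top2a at 50.1 and 31.7 and 28.0 and 57.7, and Cdk1 at 16.0 and 9.87 and 9.26 and 16.2. The libraries of the 2 groups interleaved in 12 of 13 mitotic genes and in all 3 of Ccna2, Ccnb1 and Cdk1. Replicate 2 was the higher one in 33 of 42 genes in OL miR-145, in 29 in OL miR-145+miR-219 and in 6 in OL miR-ctl. Without OL miR-145 replicate 2 the median over the 42 genes turned to -0.11, and without OL miR-145 replicate 1 it was 0.38. Summed microglia markers stood at 298 and 752 CPM in OL miR-145 and 292 and 438 in OL miR-ctl, fibroblast and mural markers at 7.47 and 24.3 against 3.64 and 3.59, and astrocyte markers at 12373 and 8477 against 6186 and 5183, with 6 of 6 astrocyte markers higher in both miR-145 libraries. Maturing OL markers summed to 15421 and 24700.5 CPM in OL miR-145 against 16846 and 30881, and OPC markers to 1879 and 1645 against 1997 and 1386. Estimates were lower for 6 of 7 maturing OL markers and 4 of 5 OPC markers, and higher for 1 in each list. The part of any of these cell types in the values was not tested.

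**Figure D5:**
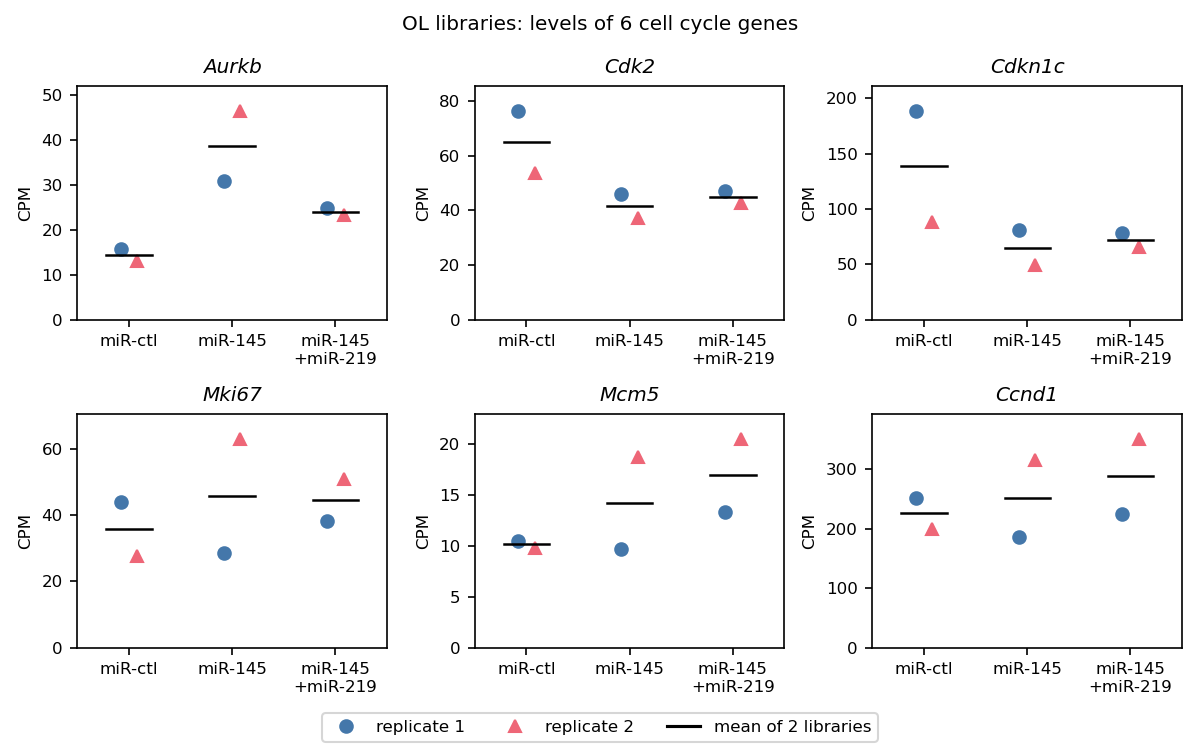
Levels in CPM of Aurkb, Cdk2, Cdkn1c, Mki67, Mcm5 and Ccnd1 in the 6 OL libraries, by group, with circles for replicate 1, triangles for replicate 2 and a line at the mean of both. Aurkb stands at 13.1 and 15.7 in miR-ctl below all 4 other libraries, Cdk2 and Cdkn1c stand highest in miR-ctl, and the groups overlap for Mki67 and Ccnd1.

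A further comparison set OLs given both mimics against the same 2 miR-ctl libraries, so its values and those just given are not independent. None of the 42 genes was called among 15436 tested (0% called, 956 at an unadjusted p under 0.05, and 106 called by DESeq2, 1 of them on the list), 4 of the 42 had an unadjusted p under 0.05, and the median log2 fold change was 0.10. Both libraries stood above both controls in 9 genes and below in 4, against 17.2% and 19.5% of all genes.

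Aurkb again had the smallest p of the list, at 24.8 and 23.4 CPM against 15.7 and 13.1 (log2 fold change 0.75 ± 0.15 SE, unadjusted p = 0.00366, adjusted p = 0.8), and DESeq2 called it (adjusted p = 0.0371, over a range of 0.0371 to 0.998). Mcm5 stood at 13.3 and 20.5 against 10.5 and 9.78 CPM (unadjusted p = 0.0265), Rrm1 at 77.6 and 81.6 against 65.9 and 68.6 (unadjusted p = 0.0491) and Mcm6 at 22.3 and 28.3 against 20.0 and 18.2 (unadjusted p = 0.0526). Both mimic libraries were the higher ones in each of these 3 replication genes. Cdk2 stood at 47.1 and 42.8 against 76.3 and 53.7 CPM (unadjusted p = 0.0407) and Cdkn1c at 78.8 and 65.7 against 189 and 88.8 (unadjusted p = 0.0518), both lower in both mimic libraries. The adjusted p of these 5 genes was 0.80. Without OL miR-145+miR-219 replicate 2 the median over the 42 genes was -0.02, and without OL miR-ctl replicate 1 it was 0.37. Summed astrocyte markers stood at 10175 and 6119 CPM and microglia markers at 279.6 and 500.1 with both mimics, and their part was not tested.

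The last comparison asked what the miR-219 mimic added to the miR-145 mimic. None of the 42 genes was called among 15501 tested (0% called, 228 at an unadjusted p under 0.05, and 9 called by DESeq2, 0 of them on the list), and the median log2 fold change was -0.01. Both libraries with miR-219 stood above both miR-145 libraries in 3 genes and below in 3, against 13.2% and 11.6% of all genes. Aurkb, at 24.8 and 23.4 CPM against 30.9 and 46.5, was the only one of the 42 with an unadjusted p under 0.05 (log2 fold change -0.69 ± 0.22 SE, unadjusted p = 0.0284, adjusted p = 1). Cdkn1a stood at 272 and 263 against 341 and 284 CPM and Cdk6 at 2.11 and 1.69 against 2.21 and 3.11, lower in both libraries. Mcm7 was higher in both, at 42.3 and 46.2 against 38.5 and 41.1 CPM, while Cdkn2c (18.7 and 15.1 against 21.2 and 18.6) and Ccnd2 (67.5 and 37.1 against 64.5 and 63.7) overlapped. The unadjusted p of these 5 genes lay between 0.132 and 0.353. Without OL miR-145 replicate 2 the Aurkb difference was -0.36 on the log2 scale, and without OL miR-145 replicate 1 it was -0.96.

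Of the 104 other pathway genes tested in OLs, 0 were called by the main edgeR fit, without a replicate term, in any of these 3 comparisons. In each, 2 had an unadjusted p under 0.05 and DESeq2 called 0. Their median log2 fold changes were 0.05, 0.06 and 0.04. With 2 libraries per group, the standard error of Mki67 was 0.41 on the log2 scale between OL miR-145 and OL miR-ctl, against 0.15 between the OPC groups.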

How the data were processed

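RNA of 10 libraries (TruSeq Stranded mRNA, NextSeq 500) was quantified by the authors with Salmon 0.12.0 against GENCODE transcripts of Rnor6.0, and tximport summed the transcripts per gene. The deposited values are estimated counts, not normalized, and were rounded to whole numbers here. Symbols came from the authors' deposited table of their OL miR-145 comparison, whose fold changes and p-values (made with DESeq2) were not used. Groups came from the sample titles.

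The 5 comparisons were fitted one by one with edgeR 4.0.16 in R 4.3.3 (TMM, glmQLFit, glmQLFTest), each on the 4 libraries compared, keeping a gene that reached 5 counts in 2 of them. The standard error is the log2 fold change divided by the square root of F. CPM used TMM over all 10 libraries. The functions were tested on simulated data. Alternatives were DESeq2 1.42.0, its size factors, other filters, all 5 groups in 1 fit, a replicate term and leaving out each library. Figures used Python 3.11.15 with matplotlib 3.10.9.

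The genes, their roles, and the pathway and marker lists were chosen with earlier results of these data known, and most lists share genes with the same biology. Per-library values go to at most 12 called genes of largest change per comparison, or to the 6 of smallest p where none was called. In some comparisons, but not all, they also go to Mki67, Top2a, Ccnb1, Cdk1, Ccnd1, Cdkn1a, Cdkn1b, Cdkn1c and Mcm2. Those of Birc5, Pcna, Rb1, Ccne1, Incenp, of Cdk2 in the stage comparison and of Cdca8 in OLs were added after their values were seen. The values of some genes on the lists are not reported here. Promoters and the miRNA came from RefSeq tables (GRCr8). Splitting of reads between similar genes by the authors' quantification can shift Ccne2, Cdk4, Rrm2 and Aurkb.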

Additional observations from a re-analysis of the deposited data

How the results depend on the processing

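In the 2 comparisons that include OPCs, 0 of the 42 genes changed direction under any of the 10 alternatives and most calls were kept, where between 32 and 39 were called for the inhibitor against 38, and between 38 and 41 for the stage against 40. In the OL comparisons, where the main fit called 0 of the 42, DESeq2 called 1 (Aurkb) for miR-145 and 1 for both mimics, and the fit of all 5 groups called 1 for miR-145. Genes called over the whole table moved with them. For miR-145 they were 0 with the main fit, 649 with DESeq2 and 79 with all 5 groups, for both mimics 0 and 106 with DESeq2 and 1 with no filter, and for added miR-219 0 and 9 with DESeq2. For the inhibitor 4348 genes were called, against 2657 with all 5 groups and between 2348 and 7133 with 1 library left out. For the stage they were 9042, against 4780 to 10306 with 1 library left out. The causes of these shifts were not tested. Where 1 library was left out, the lone library of a group is assumed to vary like the others.

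With 1 library left out, the median log2 fold change of the 42 genes ran from -0.017 to 0.365 for both mimics, from -1.12 to -1.05 for the inhibitor and from -3.34 to -2.96 for the stage. For miR-145 it ran from -0.11 to 0.38 and for added miR-219 from -0.22 to 0.23, so the sign of this median depended on a single library in each OL comparison. Of the 42 genes, between 7 and 18 changed direction with 1 library left out in these 3 comparisons, but not Aurkb. Ccnd2, with -0.30 for added miR-219, ran from -0.794 to 0.069.

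The labels number the replicates without saying that a number marks a shared culture, and with 2 pairs the numbers were not taken to pair libraries. Deviations from the group means of same-numbered libraries correlated at 0.40, 0.47, 0.63, -0.15 and 0.07 across genes in the 5 comparisons. Across the 42 genes alone the values were -0.30, -0.003, 0.73, -0.20 and -0.11. With the replicate number as a block, 7 of the 42 genes were called for miR-145 (Aurkb, Ccnd2, Cdkn1a, Mcm3 and Tyms higher, Cdk2 and Cdkn1c lower), 1 for both mimics and 1 for added miR-219 (Aurkb in each), 35 for the inhibitor (Ccnd2, Rb1 and Cdkn1c lost) and 40 for the stage, and over all genes 2272, 132, 184, 3963 and 8534. With this block, 2 of the 104 other pathway genes were called for miR-145, and 0 for both mimics and for added miR-219. Counts of the 42 genes were 45 or more in each library, and how far depth or the number of libraries limited the calls was not tested.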
